A study of Mus musculus with 6 samples.

Results

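Of the regions of the mouse genome that LncMyoD ChIRP recovered in both replicates of differentiated myotubes, 11509 lay in gene deserts. ChIRP captures a chosen RNA, with the chromatin attached to it, on biotin-labelled DNA probes. A shared region is the union of peaks of the 2 replicate lists that overlap by at least 1 bp, with at least 1 peak of each list. It was counted as a gene desert region if it lay on chromosomes 1 to 19, was under 3000 bp wide, had its midpoint 200 kb or more from every protein-coding gene, and had no lncRNA gene or pseudogene within 1 kb of the midpoint. The series gave 97493 shared regions in all, of which 91164 were on these chromosomes and under the width limit, so gene desert regions were 12.6% of them. They covered 9.93 Mb. The rule used the peak calls of both lists, position and width, and no fold or q-value. Width went with fold, as given below, so the width limit was not independent of strength.

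All 6 samples were C57BL/6 primary myoblasts turned into myotubes in DMEM with 2% horse serum over 2 days, with no other treatment named in the labels. They formed 3 groups of 2: DNA captured with the odd-numbered LncMyoD probes, DNA captured with the even-numbered probes, and input. The 2 deposited lists, in mm10 coordinates, each bear the name that the labels give to every sample of 1 replicate, input included, so no comparison of the probe pools or with input was possible. Whether the replicates came from separate cultures is not in the labels, no undifferentiated or LncMyoD-depleted sample was analysed here, and peak lists hold no expression with which to check the cell type.

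LncMyoD is a long non-coding RNA encoded near Myod1, the gene of the transcription factor that commits cells to muscle. Gene deserts are long stretches without protein-coding genes. Many lie beside genes of developmental transcription factors or of neuronal adhesion proteins, and some hold distant enhancers of such genes. RNA capture can also recover DNA that resembles a probe, whether or not the RNA binds there.

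Of the 11509 gene desert regions 1 overlapped the promoter window of an annotated gene, against 2326 (2.92%) of the other shared regions, a difference that the rule sets in large part. It is shown here because it was the only one whose sequence could be read from the reference tables. The region chr13:52220435-52223134, 27.5-fold over background in replicate 1 and 20.5-fold in replicate 2, lies between Gadd45g and Diras2. It held both annotated starts of the lncRNA gene Gm33041, the nearer 1083 bp from its midpoint. The window of that start, below, is RefSeq sequence of GRCm38.p6, the assembly behind mm10, on the plus strand at chr13:52222618-52222917, and the single capital marks the first transcribed base.
Gm33041 promoter window: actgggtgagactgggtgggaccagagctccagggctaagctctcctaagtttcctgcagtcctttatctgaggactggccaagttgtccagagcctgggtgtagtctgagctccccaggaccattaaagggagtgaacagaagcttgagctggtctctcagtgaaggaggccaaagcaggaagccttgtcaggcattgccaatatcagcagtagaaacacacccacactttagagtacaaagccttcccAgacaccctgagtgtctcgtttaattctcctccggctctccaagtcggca
The 300 bases held 53.0% G and C, against a median of 52.7% over 32851 such windows. Neither strand matched the E-box CANNTG, which myogenic factors of the MyoD family recognise, and 72.3% of all windows held a match. The E-box forms CAGCTG and CAGGTG, held by 16.3% and 20.2% of all windows, the AP-1 motif TGANTCA, held by 7.81%, and the MEF2 motif, held by 3.19%, were also unmatched. CAGCTG and CAGGTG are forms of CANNTG.

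No gene desert region overlapped an annotated miRNA, and 2 had a miRNA gene within 1 kb. Their mature sequences are given from RefSeq GRCm38.p6, with the seed, bases 2 to 8, in capitals.
miR-135a-5p: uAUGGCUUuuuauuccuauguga
miR-135a-2-3p: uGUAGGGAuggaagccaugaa
miR-101c: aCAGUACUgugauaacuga
Mir135a-2, a source of miR-135a, lay 48 bp from chr10:92071132-92072037, a region of 4.31-fold in replicate 1 and 20.4-fold in replicate 2 between Tmpo and Nedd1. Mir101c lay 321 bp from chr9:3037745-3038347, a region of 3.16-fold and 4.32-fold at the start of the assembled chromosome 9. That region is 1 of the 11 of low fold and high −log10 q described below. The 3 seeds differ from each other. Of the other small RNA genes, snRNA genes lay inside 3 regions and within 1 kb of 8 more. The strongest of the 3 overlaps was at Gm22845 on chromosome 12, with 43.3-fold in replicate 1 and 52.6-fold in replicate 2. Genes typed as misc_RNA overlapped 4 regions, of at most 14.2-fold. No snoRNA or tRNA gene overlapped a gene desert region, and 7 and 2 regions lay within 1 kb of one. The same counts over all shared regions are not given here, so these small RNA counts do not show whether deserts differ from other places.

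The gene desert label was checked against the other genes of the annotation. Antigen receptor loci, which hold the V, D, J and C segments that lymphocytes join into immunoglobulin and T cell receptor genes, are not typed as protein-coding there, and 194 gene desert regions (1.69%) lay inside them. Of these, 81 lay in Igk (chr6:67555636-70726754), 60 in Tcra (chr14:52427967-54224198) and 53 in Igh (chr12:113258768-116009954). Igk, Tcra and Igh held 96, 85 and 90 shared regions. Igl, Tcrb and Tcrg held 9, 24 and 4, none of which met the gene desert rule. The 194 regions had median folds of 11.8 and 11.4, and 35 (18.04%) reached 20-fold in both lists. That share was 20.3% over all 91164 regions, the background, and 22.5% over all gene desert regions. The strongest lay in Igh at chr12:115681858-115684755, with 50.1-fold and 63.3-fold. Without the antigen receptor loci 11315 regions remained.

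Gene deserts were not empty of shared regions, and held fewer of them per megabase than the rest of the genome. The gene desert span of chromosomes 1 to 19 was 407 Mb, 16.9% of the span between the first and the last peak of each chromosome. It held 28.3 shared regions per Mb, against 39.9 per Mb elsewhere, a ratio of 0.708. The ratio was under 1 on all 19 autosomes, with a mean of 0.713 ± 0.067 (SD, n = 19 autosomes). It was lowest on chromosome 17, at 0.549, and highest on chromosome 13, at 0.840. Gene desert density itself ran from 23.8 per Mb on chromosome 17 to 34.4 per Mb on chromosome 10. Each list on its own gave a like ratio of peaks per Mb, 0.716 in replicate 1 and 0.695 in replicate 2. Among peaks of 40-fold and more the ratios were 0.673 and 0.657, and among those of 20-fold and more 0.762 and 0.768. Autosomes share the same libraries and are not replicates, so these counts are descriptions without a test. Assembly gaps and sequence to which reads cannot be placed uniquely were not subtracted from either span, and their part in the ratio was not tested.

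From 50 kb outward the density fell with each class of distance from genes, as the plot by distance class shows. Here regions beside lncRNA genes and pseudogenes are included. Inside protein-coding genes there were 39.5 shared regions per Mb, and within 10 kb of them 44.0 per Mb, the higher value on 17 of 19 autosomes. At 10 to 50 kb the density was 43.3 per Mb, at 50 to 100 kb 38.3 and at 100 to 200 kb 35.3. Beyond the limit that defines a desert it was 31.1 per Mb at 200 to 400 kb, 27.5 at 400 to 800 kb and 24.97 at 800 kb and over. The 200 to 400 kb class was below the 100 to 200 kb class on 18 of 19 autosomes, and the 800 kb class was below the 400 to 800 kb class on 16 of the 18 autosomes with at least 1 Mb in it. Strength did not fall with it: 22.4%, 22.7% and 22.6% of regions reached 20-fold in both lists in the 3 desert classes, and 18.4% to 20.7% in the 5 nearer classes.

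**Figure D1:**
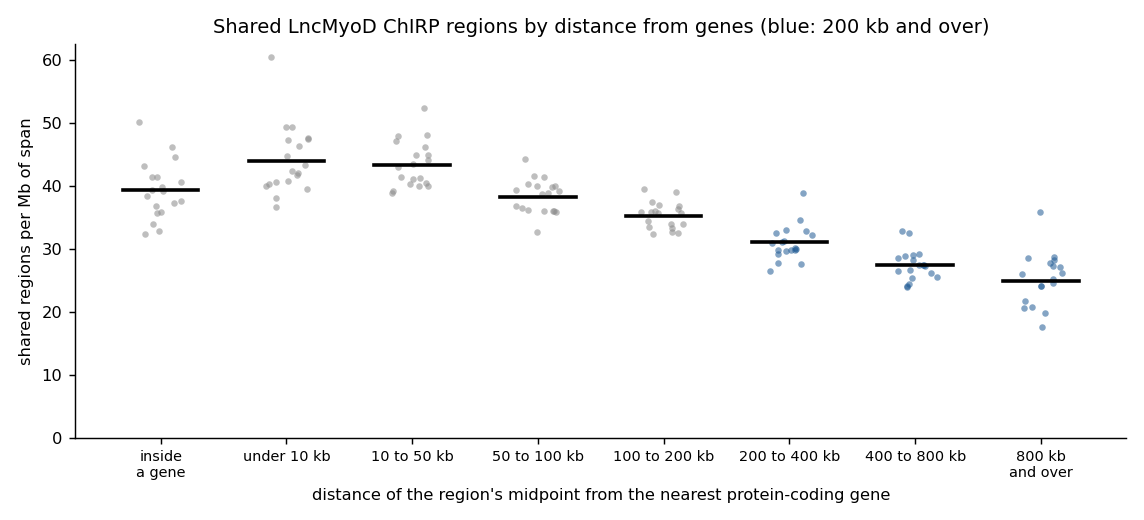
Shared regions per Mb of span (vertical axis) in 8 classes of distance from the nearest protein-coding gene (horizontal axis). Each point is 1 autosome with at least 1 Mb in the class, black lines are the value over all autosomes, and blue marks the classes of 200 kb and over, which sit at 31.1, 27.5 and 24.97 per Mb.

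The regions were spaced more widely in deserts. The median gap to the nearest other shared region was 9449 bp for gene desert regions and 6440 bp for all others. In deserts 51.5% had another shared region within 10 kb, against 62.3% elsewhere. Gaps over 50 kb on both sides were found for 695 gene desert regions (6.04%), against 2.39% of the others. At the close end, 1571 (13.7%) had a neighbour within 1 kb, against 16.8% of the others.

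Gene desert regions were as strong as, or slightly stronger than, the others in both lists. Fold is the authors' enrichment at the peak summit over the background that the caller estimated. A region's fold in a list is the highest fold among its peaks there. Its best summit, used below, is that of its peak of highest −log10 q, which can be another peak. Over gene desert regions the fold in replicate 1 ran from 1.74 to 99.2 with a median of 11.4, and in replicate 2 from 2.00 to 96.7 with a median of 12.4. The medians of all other regions were 10.7 and 11.8. Gene desert regions had the higher median on 16 of 19 autosomes in replicate 1 and on 13 in replicate 2. The groups overlapped over nearly their whole range.

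At 20-fold or more in both lists there were 2585 gene desert regions (22.5%), where the background over all 91164 regions was 20.3% and the share of the others 19.9%. The share was higher in deserts on 16 of 19 autosomes. At higher limits the desert share was not the higher: 4.79% against 4.83% reached 40-fold in both lists, and 0.80% against 0.84% reached 60-fold. The order turned when only the 30000 strongest peaks of each list were used, with 93.9% of gene desert regions and 95.7% of the others at 20-fold in both lists, and median folds of 30.6 and 31.2 against 33.8 and 34.0. Gene desert regions made up 10 of the 100 strongest regions, 125 of the 1000 strongest (12.5%) and 1238 of the 10000 strongest (12.4%), near their 12.6% share of all. Strength here means the percentile of a region's best −log10 q in each list, averaged over the lists.

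Width went with fold. The median width was 736 bp in deserts and 754 bp elsewhere. The 3191 gene desert regions under 500 bp had median folds of 6.24 and 6.49, and 1.28% of them reached 20-fold in both lists. Of the 426 regions of 2000 bp and over, 84.3% did, with median folds of 37.1 and 37.8. Most gene desert regions, 10189 (88.5%), were made of 1 peak of each list, near the 87.3% of the others.

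The folds of the lists went together, as the plot of both folds shows. Spearman's rho between the lists was 0.791 over gene desert regions and 0.755 over the others, as a description across regions, which share libraries and are not independent replicates. In deserts 87.5% of regions had folds within 2 times of each other, against 84.9% elsewhere. The best summits of the lists lay a median of 63 bp apart, against 77 bp, and within 200 bp of each other in 80.2%, against 76.5%. Both sets hold only regions with overlapping peaks of both lists, so close summits and a fold in each list are in large part set by the rule. Peaks without a partner are left out here and are counted below. Replicate 1 had the higher fold in 46.7% of gene desert regions.

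**Figure D2:**
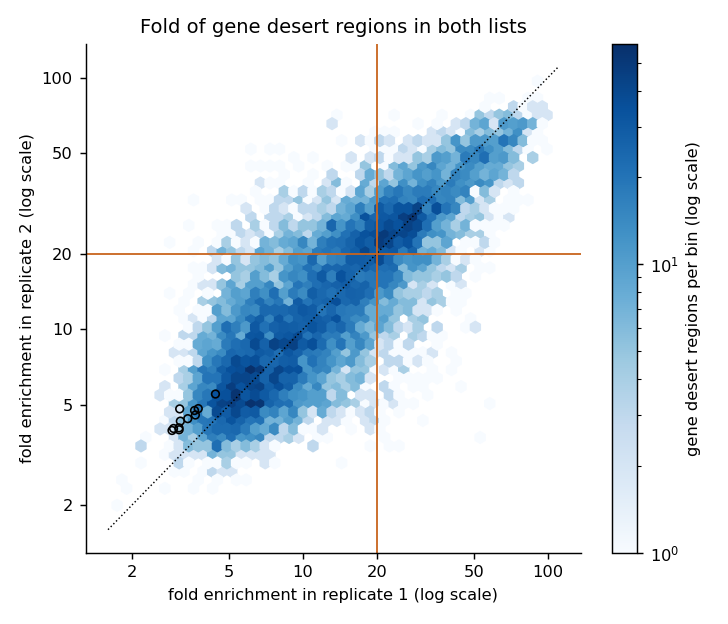
Fold enrichment of the 11509 gene desert regions in replicate 1 (horizontal, log scale) and replicate 2 (vertical, log scale), with darker bins holding more regions. Orange lines mark 20-fold, past which 2585 regions lie in both lists, the dotted line marks equal folds, and open circles are the 11 regions of low fold and high −log10 q on chromosomes 2 and 9.

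Some regions were unequal between the lists by far more. The region chr16:15333079-15334208 near Ube2v2 had 52.5-fold in replicate 1 and 3.71-fold in replicate 2, a log2 ratio of 3.82. In the other direction chr7:52748951-52750031, between 1700015G11Rik and Luzp2, had 3.67-fold and 33.7-fold, a log2 ratio of -3.20. These were chosen after their values were seen, as the ends of the range among gene desert regions.

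Whether a peak was found again in the other list was measured over all gene desert peaks, placed by the same rule 1 list at a time. Of 18676 such peaks of replicate 1, 12383 (66.3%) had a partner in replicate 2, where the background over all autosomal peaks was 67.8%. Of 21030 in replicate 2, 12310 (58.5%) had a partner, against a background of 57.6%. The desert share was the higher on 5 of 19 autosomes in replicate 1 and on 12 in replicate 2, so the lists differed in direction and both shares lay near the background. Partnered gene desert peaks had median folds of 11.02 and 11.8, and unpartnered ones 5.64 and 6.18.

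Split by strength into steps of 10% of each list, gene desert peaks of replicate 1 had a lower share with a partner than other peaks in 9 of 10 steps, and those of replicate 2 in 5 of 10. The gap was widest in the weakest step of replicate 1, at 32.8% against 39.4%. The weakest step of replicate 2 went the other way, at 30.6% against 27.4%. In the strongest step the shares were 94.9% and 95.1% in replicate 1, and 92.0% and 92.9% in replicate 2. The strongest gene desert peak by −log10 q without a partner in replicate 1 had 61.0-fold, 447 kb from Nectin3.

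**Figure D3:**
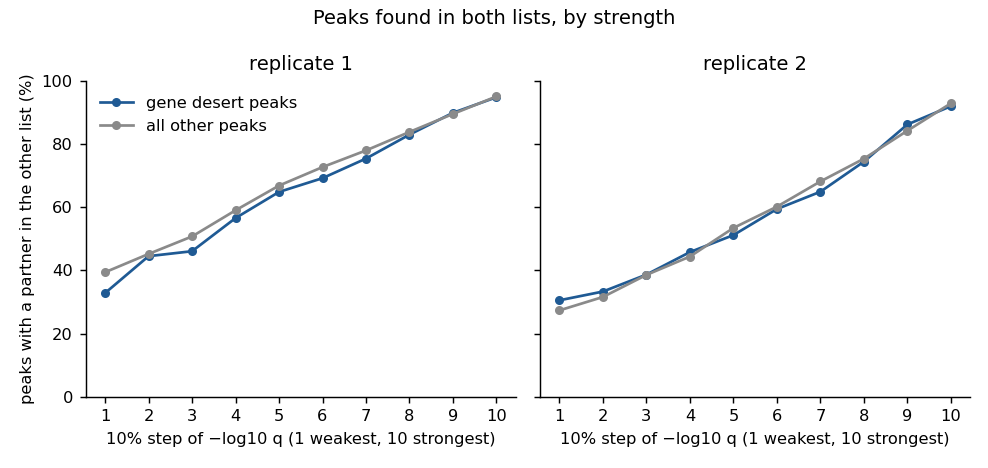
Share of peaks with a partner in the other list (vertical axis, %) by 10% step of −log10 q within each list (horizontal axis, 1 weakest), for replicate 1 (left) and replicate 2 (right). Gene desert peaks (blue) and all other autosomal peaks (grey) run close together and meet near the top step, at 94.9% and 95.1% in replicate 1.

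The 10 strongest gene desert regions lay in 10 different intervals between protein-coding genes and took places 21 to 99 of the 91164 regions. The strongest, chr4:47745843-47748705, had 83.9-fold and 84.6-fold and lay between Sec61b, a subunit of the endoplasmic reticulum translocon, and Nr4a3, an orphan nuclear receptor, 264 kb from Sec61b. It was 2863 bp wide, and its best summits were 29 bp apart. The next, chr8:44613866-44615718, had 91.5-fold and 96.7-fold, 318 kb from Fat1, a giant cadherin-like protein. The region chr10:126411902-126414143 had 93.1-fold and 79.9-fold, 398 kb from Lrig3. All 3 were near the top in both lists.

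The next 3 in order lay 784 to 980 kb from the nearest protein-coding gene. The region chr15:14155394-14157834, between Cdh6 and Cdh9, had 96.2-fold and 77.8-fold, 980 kb from Cdh6. The region chr8:100200595-100203179, between Cdh8 and Cdh11, had 96.2-fold and 76.0-fold, 784 kb from Cdh8. Between them in order was chr3:12509854-12512078, with 98.4-fold and 67.5-fold, 961 kb from Ralyl. In each of these 3 regions replicate 1 had the higher fold.

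The remaining 4 were lower in order. The region chr4:10136235-10138877 lay 275 kb from Gdf6, a ligand of the bone morphogenetic protein family. Its folds, 39.0 and 50.1, were the lowest of the 10. Its −log10 q of 377 in replicate 1 was below the 9 others, and its 460 in replicate 2 lay within their range. The region chr1:76919908-76920782 lay 447 kb from Epha4, a receptor for ephrins, with 93.3-fold and 73.2-fold over 875 bp, the narrowest of the 10. The last pair lay 1337 kb from 1700015G11Rik (chr7:53351640-53354080, 92.9-fold and 73.2-fold) and 581 kb from Klf4, a transcription factor of stem and epithelial cells (chr4:56112573-56114702, 90.0-fold and 74.7-fold).

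A small set had low folds with high −log10 q. Of 1233 gene desert regions under 6-fold in both lists, 11 had a mean percentile of −log10 q of 75 or more. They were chosen after their values were seen. There were 4 between chr2:98662146-98667414 and 7 at the start of chromosome 9, between chr9:3005681-3038347. Their folds ran from 2.92 to 4.39 in replicate 1 and from 3.96 to 5.53 in replicate 2, with −log10 q from 37.6 to 122 and from 54.9 to 155. The other 1222 regions of such folds had median −log10 q values of 6.39 and 6.97. For a caller that scores a summit against a background estimate, a high −log10 q at a low fold goes with a high estimate. The lists do not hold that estimate, so whether it was high at these 11 regions was not tested. Among all other shared regions, 12 of 8432 under 6-fold in both lists reached that percentile.

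The 5 regions farthest from genes had folds from 4.97 to 26.4 in replicate 1 and from 5.56 to 18.2 in replicate 2. None of the 5 reached 20-fold in both lists, but they are too few to describe distant regions. Of all shared regions at 800 kb and over, 22.6% did, with median folds of 12.1 and 12.4. The median distance to a protein-coding gene was 428 kb. The farthest region, chr14:90741011-90741723, lay 2270 kb from Pcdh20 and had 12.7-fold and 18.02-fold. The next 4 all lay between Celf4, which encodes an RNA-binding protein of neurons, and Pik3c3, a lipid kinase of autophagy, on chromosome 18. The lowest of them, chr18:28015256-28015640, had 4.97-fold and 5.56-fold at 2250 kb, and the highest, chr18:27986764-27987445, had 26.4-fold and 18.2-fold at 2233 kb. Just inside the limit, 3 regions at 200002, 200023 and 200035 bp from Kcnj16, 1700012A03Rik and Dkk2 had folds of 5.14 and 4.63, 21.3 and 12.4, and 8.45 and 11.4. Just outside it, 3 at 199994, 199986 and 199979 bp from Dipk2a, Mki67 and D3Ertd751e had 6.24 and 5.87, 6.19 and 3.95, and 9.55 and 6.49.

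The deserts themselves were 731 intervals between neighbouring protein-coding genes, or between such a gene and a chromosome end, that hold any position 200 kb from a gene. Of these, 668 (91.4%) held at least 1 gene desert region, and the median held 10. The largest core, the part of an interval 200 kb or more from both genes, without a region was 291 kb. All 280 intervals with a core of at least 500 kb held one, at a median of 24.9 regions per Mb of core and from 7.22 to 57.4. The 52 intervals with 50 or more regions held 3557 of them (30.9%).

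Gene desert regions were spread along the intervals that held most of them. The interval from Pcdh7 to G6pd2 on chromosome 5 held 103, of which 21 reached 20-fold in both lists, with median folds of 12.3 and 12.7. Lrrc4c, a ligand of netrin-G, to Iftap on chromosome 2 held 95, with medians of 10.7 and 11.1. Dsel to Cntnap5a, of the contactin-associated family, on chromosome 1 held 93, with medians of 9.55 and 10.8. Pcdh20 to Pcdh9 on chromosome 14, the widest interval at 4.54 Mb, held 91, with medians of 11.8 and 12.97. Cntnap5b to Cdh20 on chromosome 1, 4.28 Mb wide, held 89, with medians of 14.7 and 13.3. The number of regions followed the width of the core, with a Spearman's rho of 0.872 over the 280 intervals of 500 kb and over, as a description.

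**Figure D4:**
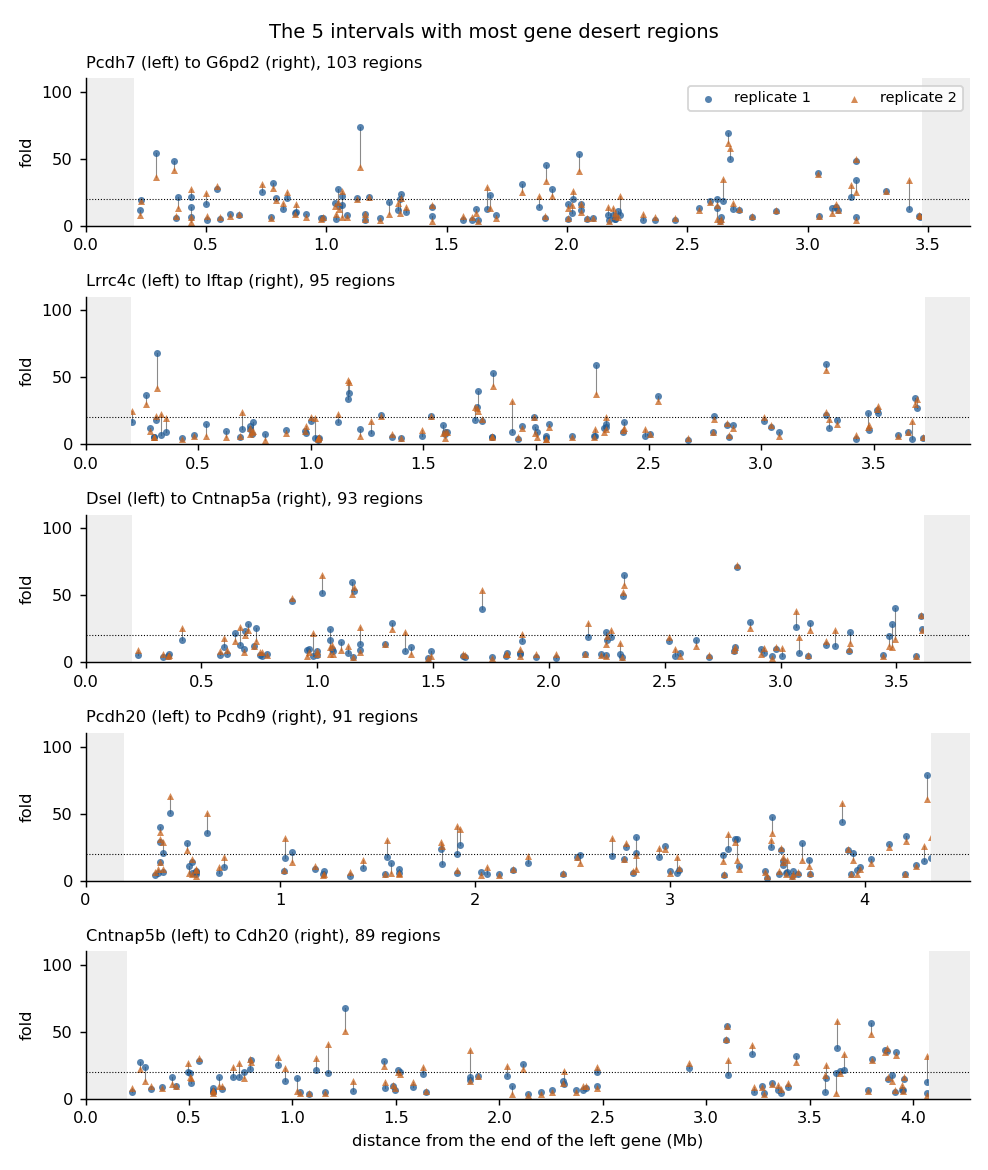
Fold enrichment (vertical axis) of each gene desert region in replicate 1 (blue circles) and replicate 2 (orange triangles), joined by grey lines, by distance from the end of the left gene (horizontal axis, Mb), in the 5 intervals with most regions. Grey bands are the 200 kb next to each gene, the dotted line marks 20-fold, and 89 to 103 regions lie along each interval.

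The other widest intervals held fewer. Celf4 to Pik3c3, 4.51 Mb, held 86, Olfm4 to Pcdh17, 4.42 Mb, held 81, and Tenm3 to Aga, 3.99 Mb, held 59. Density varied several fold among intervals of 500 kb of core and over. The core includes lncRNA genes, pseudogenes and the 1 kb around them, where the rule counts no region. An interval rich in such genes thus has a lower density, and the size of that effect was not tested. The highest was 57.4 per Mb between Med13l and Tbx3, a T-box factor of limb and heart, with 29 regions in 0.505 Mb of core. The second, at 46.4 per Mb, was the interval from Gm36448 to Dad1, all 60 of whose regions lay in Tcra. Among the sparsest was the interval from Gm15501 to Tenm4, 2.99 Mb wide, with 20 regions at 7.73 per Mb.

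Which genes flank a desert is set mainly by the annotation, because most intervals held a region, so the counts below describe deserts more than capture. Over all 20554 protein-coding genes of chromosomes 1 to 19, 5.69% flanked an interval with a gene desert region. Of 93 developmental transcription factors 63 did, of 24 cadherins and protocadherins 19, of 59 synaptic adhesion and axon guidance genes 42, and of 50 secreted signals 19. Of 29 muscle structure genes and 23 ubiquitous genes none did. The lists were chosen with earlier results of these data known.

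Within the flanked intervals the density of regions did not set these lists apart. All 731 intervals held 25.1 regions per Mb of core, which, as above, includes lncRNA genes and pseudogenes. Intervals beside developmental transcription factors held 24.0 per Mb, those beside cadherins 25.1, those beside synaptic genes 22.4, and those beside secreted signals 29.2. The shares of these regions at 20-fold in both lists were 23.5%, 22.3%, 23.4% and 21.5%, near the 22.5% over all gene desert regions.

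Among the transcription factors the most regions lay beside Zeb2, a repressor of epithelial genes, with 81. Nr2f1, an orphan nuclear receptor, had 54, and Gata3 had 50. Intervals on both sides were counted, where both qualify. Among cadherins Pcdh7 had 189, Cdh8 156, Pcdh9 125 and Pcdh17 124. Among synaptic genes Lrrc4c had 138, Cntnap5a 115, Ncam2 111 and Cntnap5b 109. Among secreted signals Nrg3, a neuregulin, had 51, Fgf9 20, Bmp2 19 and Bmp4 15. Strong regions stood beside the low-count genes too: the best beside Bmp2 had 85.9-fold in replicate 1, and 64.9-fold was the highest in replicate 2.

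Of 26 myogenic regulators 5 flanked an interval with a gene desert region: Mef2c, Id2, Runx1, Pax3 and Eya1. Myod1, Myf5, Myf6 and Myog did not. Their 7 intervals with a region held 68, at 22.1 per Mb of core over all 8 intervals beside the list. Of the 68, 25 (36.8%) reached 20-fold in both lists, and their median folds were 15.1 and 15.9, against 22.5%, 11.4 and 12.4 over all gene desert regions. The interval from Cetn3 to Mef2c, which held 31 of the 68, did not share the higher values. Its median folds were 11.9 and 12.7, near those over all gene desert regions. The list is small, its regions share a few loci, and no test was made.

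Mef2c encodes a MADS-box factor that acts with MyoD family proteins. The interval from Cetn3 to Mef2c, 1.71 Mb wide, held 31 regions and 7 at 20-fold in both lists. The strongest in order was chr13:82874473-82876294, 629 kb from Mef2c, with 71.3-fold and 39.8-fold. Another, chr13:82956967-82958612, had 26.8-fold and 56.2-fold, so the lists did not share a highest region there. On the other side, towards Tmem161b, 2 regions had 53.3-fold and 20.4-fold, and 7.52-fold and 7.72-fold.

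Id2 encodes an inhibitor of basic helix-loop-helix factors such as MyoD. The interval from Id2 to Rnf144a, 1.21 Mb wide, held 21 regions, and 9 reached 20-fold in both lists. The strongest, chr12:25682982-25684966, 588 kb from Id2, had 52.9-fold and 65.2-fold, the highest in each list. A run of 4 regions at 20-fold in both lists lay between chr12:25747542-25786944. Their folds ran from 22.4 to 34.9 in replicate 1 and from 23.8 to 46.0 in replicate 2. All 4 lay nearer to Rnf144a than to Id2, at 521 to 559 kb from Rnf144a.

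Runx1 encodes a runt-domain factor that is active in blood formation and in muscle that has lost its nerve. Between Runx1 and Setd4, 10 regions had median folds of 26.1 and 28.1, and 6 reached 20-fold in both lists. The strongest, chr16:93334571-93337129, had 62.8-fold and 64.6-fold. It lay 248 kb from Setd4, and next to it chr16:93338423-93340280 had 47.0-fold and 42.4-fold.

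Pax3 encodes a factor of muscle progenitors. Between Epha4 and Pax3 there were 2 regions, chr1:77725898-77727553 with 56.6-fold and 33.1-fold, and a weak one with 4.77-fold and 6.92-fold. Both lay nearer to Epha4 than to Pax3, at 212 and 218 kb from Epha4. Eya1, a cofactor of sine oculis homeodomain proteins, had 1 region on each side, with 8.95-fold and 9.27-fold towards Xkr9, and 32.0-fold and 27.2-fold towards Msc. The region towards Msc lay nearer to Msc than to Eya1, at 205 kb from Msc.

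**Figure D5:**
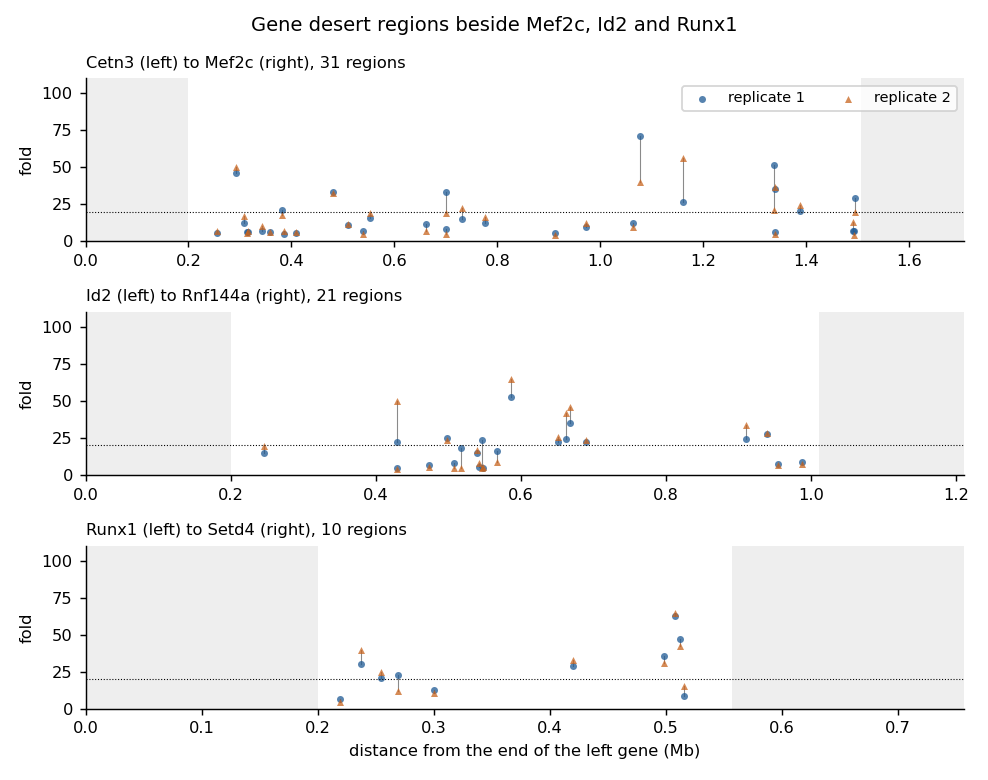
Fold enrichment (vertical axis) of each gene desert region in replicate 1 (blue circles) and replicate 2 (orange triangles), joined by grey lines, by distance from the end of the left gene (horizontal axis, Mb), in the 3 intervals beside myogenic regulators with most regions. Grey bands are the 200 kb next to each gene and the dotted line marks 20-fold, which 7 of 31, 9 of 21 and 6 of 10 regions pass in both lists.

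The lncRNA and pseudogene part of the rule removed 1578 regions that were 200 kb or more from protein-coding genes. They were like the ones kept: their median folds were 11.4 and 12.3, and 23.2% reached 20-fold in both lists. Among the gene desert regions that stayed, 1106 (9.61%) had a lncRNA gene or pseudogene within 10 kb, and 4553 (39.6%) had none within 100 kb. Among all other shared regions the shares were 29.3% and 15.3%. The rule sets part of this difference, since it removes regions within 1 kb of such genes.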

How the data were processed

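The data were 2 peak lists in narrowPeak layout, 1 per replicate. Per the submitters' processing notes, the build was mm10 and the tools were MACS2 2.1.1, Bowtie2 2.3.2 and Picard 2.9.2. For their order and parameters, the treatment and control of each call, and depth: not given in the sources used here. Each list was taken as the authors' pooled list, with no SD or n. Fold is the ratio to the caller's background that the authors deposited with each peak. The q-value was deposited by the authors as −log10 q, with a lowest value of 1.35 in replicate 1 and 1.32 in replicate 2. The summit was deposited in bp from the peak's start. Of the folds, 67.5% and 74.3% were whole multiples of 0.367 and 0.309 (within 0.01 of a step).

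From these, peaks overlapping by 1 bp were merged and placed among the RefSeq gene spans of GRCm38.p6, which carry no strand or exons. Among the gene records, 363 carry scaffold coordinates under a chromosome's name and were left out, and each chromosome's span was taken from its first to its last peak. Both choices were made after the gene table was seen, in place of a span over genes and peaks with all records. Gene desert density excludes the 1 kb around lncRNA genes and pseudogenes from the desert span. The densities of intervals use the whole core. No test was possible, since each list is 1 value and regions are not replicates, so differences are given with their counts over lists and autosomes.

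The gene desert rule, gene lists and comparisons were chosen with earlier results of these data known. The regions named are the 10 strongest, the 5 farthest from a gene, the 3 nearest to the 200 kb limit on either side, the 5 intervals with most regions, the 5 widest, and intervals beside myogenic regulators. Of each list the 4 genes with most regions are named, except for a result that is not reported here. The densest and sparsest intervals, the antigen receptor loci, the regions of low fold and high −log10 q, the most unequal regions and the regions at promoter windows and small RNA genes were named after their values were seen. Overlap and placement were tested on simulated data. Alternatives changed the peak threshold, the overlap rule, the distances, the width limit and the gene types, left out each list and each autosome, and used other gene records. Tools were scipy 1.17.1, pandas 2.3.3, numpy 2.4.6 and matplotlib 3.10.9 under Python 3.11.15.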

Additional observations from a re-analysis of the deposited data

Results flagged for a closer look

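Signal was present in places that the rule leaves out. On chromosome X 654 shared regions met the other conditions of a gene desert region, 19.4 per Mb of desert span, with median folds of 12.9 and 12.0. On chromosome Y 565 did, 22.2 per Mb, with median folds of 11.8 and 11.1. On chromosomes 1 to 19, 46 gene desert regions were 3000 bp wide or wider, up to 8709 bp, with median folds of 38.2 and 39.4, and 35 of them reached 20-fold in both lists. Scaffolds outside the assembled chromosomes held 377 shared regions, with median folds of 10.8 and 9.99.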

How the results depend on the processing

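The density ratio of desert to other span stayed below 1 under all 35 alternatives, from 0.662 to 0.808. Leaving out 1 autosome gave ratios of 0.702 to 0.714 and partner shares of 66.1% to 66.6% in replicate 1 and 58.4% to 58.7% in replicate 2. The 20-fold share and the median fold in each list were higher in deserts than elsewhere under 13 of the 14 alternatives that use both lists. The exception was the 30000 strongest peaks, at 93.9% against 95.7%, with medians of 30.6 against 33.8 and 31.2 against 34.0. With the 30000 strongest peaks of each list there were 2621 gene desert regions (14.1%), a density ratio of 0.808, and a partner share of 70.3% in replicate 2. At −log10 q of at least 5 the medians were 12.6 and 13.6 and the 20-fold share 24.3%. At a fold of at least 5 they were 14.0, 15.3 and 27.1%. Higher medians and 20-fold shares follow from keeping stronger peaks, and why the density ratio and the desert share moved was not tested. The median width was 1330 bp with the 30000 strongest peaks and 380 to 390 bp with either list alone, and the share within 10 kb of another region 24.99% and 68.3% to 70.5%, against 736 bp and 51.5%. Without the 1% of peaks of highest fold the 20-fold share was 20.6%.

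A distance of 100 kb gave 17294 regions (18.97%) and a density ratio of 0.747, and one of 500 kb gave 4797 (5.26%), 0.666 and a median fold of 12.1 in replicate 1. The desert share was 11.4% at 10 kb from lncRNA genes and pseudogenes, 11.1% at 10 kb from every annotated gene, and 14.4% with no such exclusion. A reciprocal overlap of 50% gave 13.4%, a density ratio of 0.759, a median fold of 12.5 in replicate 1, partner shares of 44.1% and 39.1% and a 20-fold share of 25.1%. Summits within 200 bp gave 13.1%, 0.740, 50.5%, 44.8% and 23.5% for the share, ratio, partner shares and 20-fold share. With either list alone, which needs no partner, there were 18676 to 21030 desert peaks, median folds of 8.29 in replicate 1 and 8.48 in replicate 2, and a share at 20-fold of 19.3% to 19.9%. Added after seeing the data were the antigen receptor loci as ends of a desert, which moved no result beyond these spreads, and the gene records with scaffold coordinates kept, with the span taken from genes and peaks, which gave a density ratio of 0.662.

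Subtracting assembly gaps was not run, since no genome was used here. No paired analysis was possible because each replicate's odd, even and input samples share 1 pooled list and no test was made. Depth is unknown, so no limit from counts is given.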
